A study of Mus musculus with 2 samples.

Results

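The 38 genes described here act in mitosis, from the kinase that starts it to the proteins that cut the daughter cells apart. They were chosen by symbol, and all 38 were found among the 32285 genes of the count tables. All 38 had a mean of at least 10 CPM (counts scaled to 1000000 per library) over the 2 libraries, a level that 7607 genes reached. The values come from single cells of mouse gastruloids, clumps of embryonic stem cells in which a body axis begins to form in culture. Both libraries used about 300 embryonic stem cells per aggregate in serum-free N2B27 medium, 3 µM CHIR (which blocks GSK3 and so turns on Wnt signalling) for 12 hours after day 2, and collection of pooled aggregates at day 2.5. The groups were wild type (WT) R1 cells and Sp5/8 double knockout (dko) cells, which lack a pair of related zinc finger transcription factors by label, and the labels do not say how many clones the mutant line represents. With 1 library per genotype there was no replicate and no test. All intervals are 95% intervals that cover counting error only, and every difference is one between these 2 libraries.

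A cell was a barcode with at least 2500 unique molecular identifiers (UMIs, tags that let copies of 1 molecule be counted once), at least 1000 genes and at most 10% mitochondrial UMIs. This gave 8707 cells with 97157331 UMIs in the library labelled WT and 10587 cells with 97644169 UMIs in the library labelled dko, with medians of 10571 and 8637 UMIs per cell, and 27 barcodes occurred in both. The targeted genes went against the label. Sp5 was at 109 CPM in the library labelled WT and at 479 CPM in the library labelled dko, and Sp8 at 20.8 and 40.1 CPM. Gene-level counts of 3′ ends cannot separate intact from edited transcripts. The libraries are therefore named by their labels throughout, and no direction below stands for loss of Sp5 and Sp8.

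Mitosis is driven by CDK1 bound to B-type cyclins, which CDC25 phosphatases switch on. Kinetochores attach chromosomes to the spindle, and the spindle checkpoint holds back the anaphase-promoting complex until all are attached. That complex, with its activator CDC20, then marks cyclin B for destruction and lets the cell divide. Many mitotic genes are transcribed in a wave late in the cycle through promoter elements called CHR (cell cycle genes homology region), read by MuvB complexes, and CCAAT boxes, read by NF-Y. Pluripotent stem cells are known for fast cycles with a short G1 phase.

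Promoters are shown for the 4 genes whose UMIs followed those of the other mitosis genes most closely in cells, and for Ccnb2, which followed them little and was added after its values were seen. Each sequence is the 250 bases before the transcription start in RefSeq on GRCm38.p6, read 5′ to 3′ along the gene's strand. Capitals mark CHR (TTTGAA or TTCGAA, reverse TTCAAA) and CCAAT (reverse ATTGG), searched on both strands, and neighbouring matches may overlap.
Ube2c (chr2:164769679-164769928, plus strand): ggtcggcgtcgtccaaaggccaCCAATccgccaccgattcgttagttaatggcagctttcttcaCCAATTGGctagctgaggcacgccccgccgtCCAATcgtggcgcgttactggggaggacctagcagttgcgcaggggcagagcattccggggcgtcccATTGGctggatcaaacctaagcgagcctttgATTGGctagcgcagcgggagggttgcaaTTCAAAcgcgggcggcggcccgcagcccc
Cenpf (chr1:189688087-189688336, minus strand): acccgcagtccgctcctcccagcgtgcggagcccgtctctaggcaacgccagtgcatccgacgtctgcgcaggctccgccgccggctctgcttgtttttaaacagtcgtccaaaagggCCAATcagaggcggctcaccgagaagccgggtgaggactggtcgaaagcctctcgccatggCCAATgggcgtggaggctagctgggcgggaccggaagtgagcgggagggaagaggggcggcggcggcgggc
Top2a (chr11:99024190-99024439, minus strand): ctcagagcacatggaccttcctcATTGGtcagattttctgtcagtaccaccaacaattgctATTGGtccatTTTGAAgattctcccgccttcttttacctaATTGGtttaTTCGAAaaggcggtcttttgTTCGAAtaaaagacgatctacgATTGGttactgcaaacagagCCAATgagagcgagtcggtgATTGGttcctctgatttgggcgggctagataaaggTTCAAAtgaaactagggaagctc
Ccnb1 (chr13:100786487-100786736, minus strand): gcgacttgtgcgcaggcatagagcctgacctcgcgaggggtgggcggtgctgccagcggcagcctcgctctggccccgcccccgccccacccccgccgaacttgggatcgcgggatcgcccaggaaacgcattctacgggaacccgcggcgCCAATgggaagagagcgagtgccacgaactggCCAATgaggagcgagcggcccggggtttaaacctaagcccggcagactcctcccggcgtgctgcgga
Ccnb2 (chr9:70421555-70421804, minus strand): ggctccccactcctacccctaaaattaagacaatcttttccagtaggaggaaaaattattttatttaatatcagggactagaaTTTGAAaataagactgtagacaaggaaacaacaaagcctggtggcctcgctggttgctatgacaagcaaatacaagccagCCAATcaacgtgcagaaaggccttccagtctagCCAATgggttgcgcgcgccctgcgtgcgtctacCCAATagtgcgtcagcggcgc

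The Ube2c window held 6 CCAAT boxes and 1 CHR, whose first base lay 29 bases before the start. The Top2a window held 6 CCAAT boxes and 4 CHR matches, the nearest 23 bases before the start. Cenpf and Ccnb1 each held 2 CCAAT boxes and no match to these CHR letters. The Ccnb2 window, with 1 CHR and 3 CCAAT boxes, carried both motifs as well.

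Promoter windows were found for 32 of the 38 genes, 35 windows in all. Ccna2, Tpx2, Kif20a, Aurkb, Incenp and Cdc25c were not matched. CCAAT stood in 27 of the 35 windows (77.1%), against 33.8% of all 32851 windows of the same length. At least 2 CCAAT boxes stood in 54.3% of the windows of the mitosis genes and in 10.1% of all. CHR stood in 15 of 35 (42.9%) against 17.1%, and both motifs together in 14 of 35 (40.0%) against 6.02%. These are matches of letters and not measured binding.

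Summed over the 38 genes, the level was close to equal in the libraries. The sum was 4942 CPM in the library labelled WT and 4826 CPM in the library labelled dko, which is 0.494% and 0.483% of all UMIs. The log2 ratio, dko label over WT label, was -0.03 (-0.04 to -0.03). The median of the 38 single ratios was also -0.03, beside a median of -0.02 over the 7607 genes, whose ratios had an SD of 0.16. On single genes, 28 of 38 ratios were below 0, where 57.1% of all genes were. The counting interval lay wholly below 0 for 17 genes and wholly above 0 for 4, while 37.6% and 25.9% of all genes lay there. Past 0.25 on the log2 scale there was 1 of 38, Ckap2, on the lower side, where 4.67% of all genes lay, and none on the higher side (3.13%), where 7.80% of all genes lay past it on either side. Ckap2 was no longer past it with TMM scaling (-0.23), with median-of-ratios scaling (-0.24), with equal cluster shares (-0.22) or in the largest cluster alone.

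**Figure D1:**
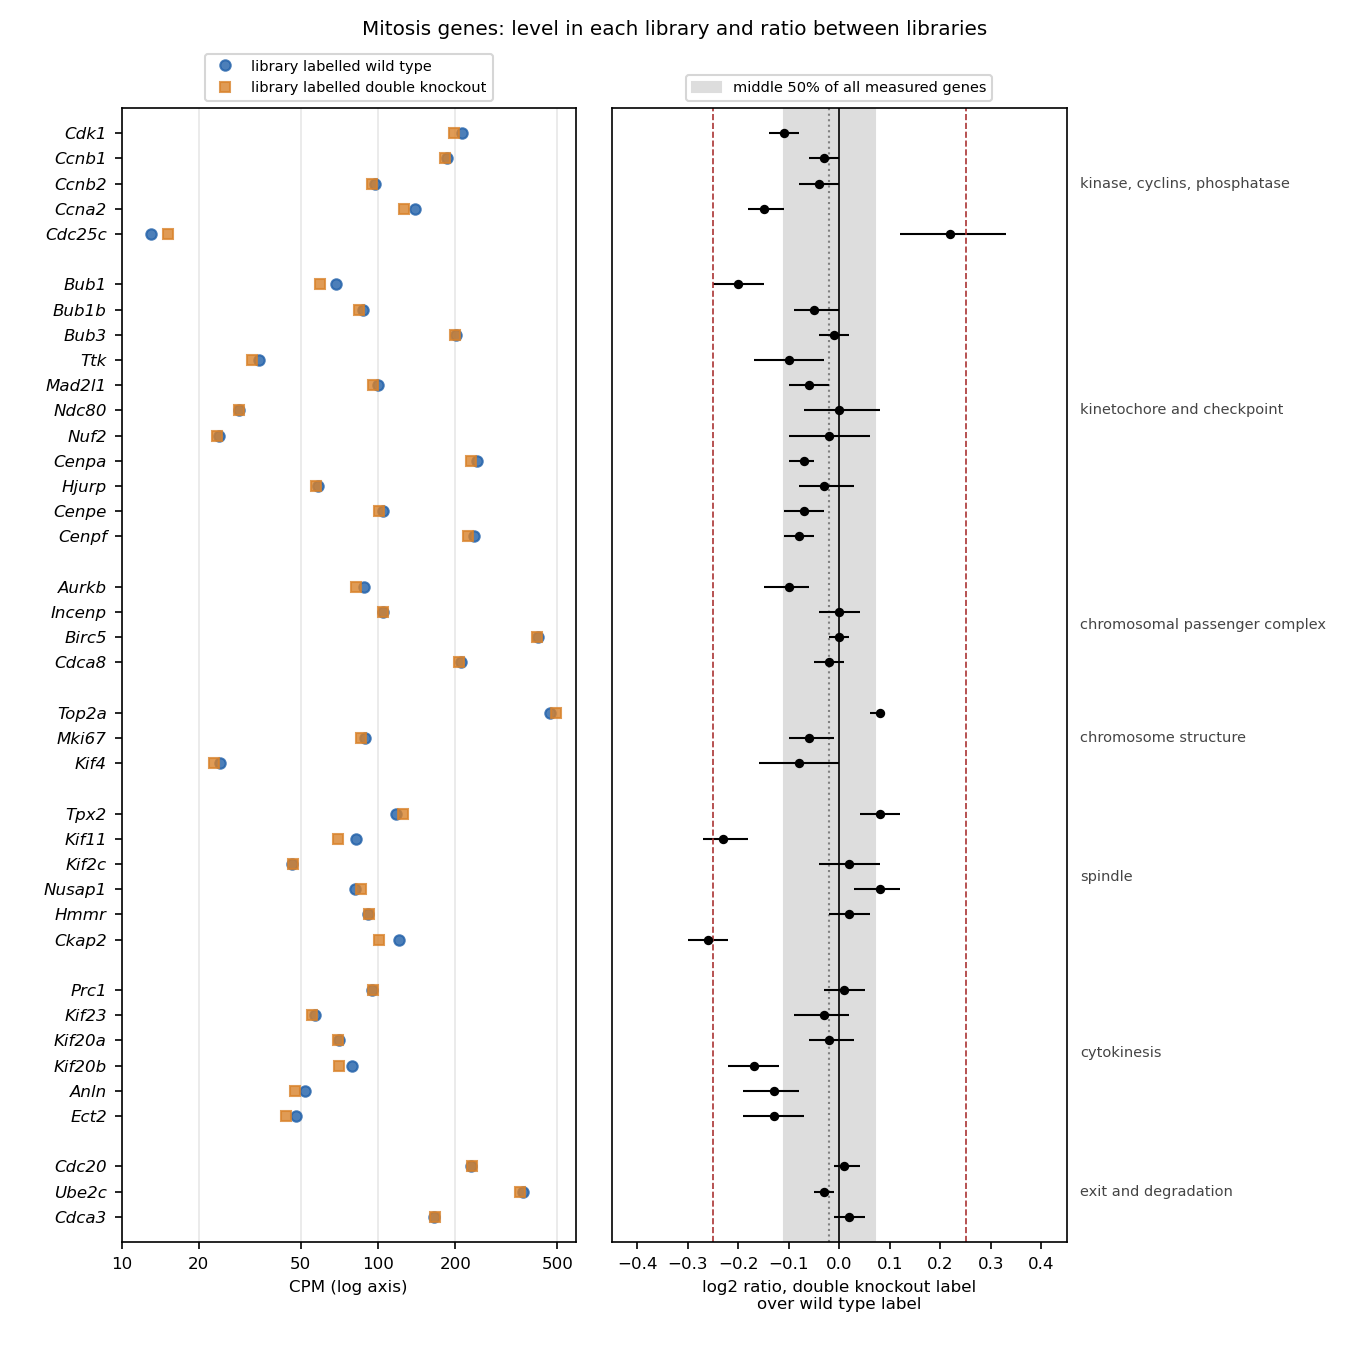
Level of each mitosis gene in CPM (left, log axis) and log2 ratio between the libraries with 95% counting intervals (right), in role groups. The grey band holds the middle 50% of all measured genes, the dotted line is their median, dashed lines mark 0.25, and only Ckap2 lies past one of them.

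The kinase and its partners opened the list with 5 genes. Cdk1, the mitotic kinase, was at 213 CPM in the library labelled WT and 197 CPM in the library labelled dko, a log2 ratio of -0.11 (-0.14 to -0.08). Ccnb1, the main cyclin B, was at 186 and 182 CPM (log2 ratio -0.03, -0.06 to 0.00), and Ccnb2 at 97.3 and 94.8 CPM. Ccna2, cyclin A2, which acts in S phase and in early mitosis, was at 139.9 and 126 CPM (-0.15, -0.18 to -0.11). Cdc25c, a phosphatase that activates CDK1, had the highest ratio of the 38 genes and the fewest UMIs. It had 1267 UMIs in the library labelled WT and 1488 in the library labelled dko, a log2 ratio of 0.22 (0.12 to 0.33).

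Of the 11 kinetochore and checkpoint genes, 10 had ratios below 0 (57.1% of all genes), and 7 of these had intervals wholly below it (37.6%). Bub1, a checkpoint kinase, had the lowest ratio of the group, with 68.3 and 59.5 CPM (log2 ratio -0.20, -0.25 to -0.15). Cenpf and Cenpe, large outer kinetochore proteins of which CENP-E is a motor, were at 236 and 224 CPM and at 105 and 101 CPM. Cenpa, the histone that marks centromeres, was at 243 and 231 CPM (-0.07, -0.10 to -0.05). Its chaperone Hjurp was at 58.3 and 57.2 CPM, and that interval held 0. The intervals of Bub3 (202 and 200.3 CPM), Ndc80 (28.6 in both) and Nuf2 (24.0 and 23.6), of which the latter pair form the microtubule-binding NDC80 complex, also held 0. Bub1b, Ttk and Mad2l1, all of the checkpoint, lay between -0.10 and -0.05.

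The 4 genes of the chromosomal passenger complex, which corrects faulty attachments and later guides cytokinesis, differed little. Birc5, or survivin, was at 419 and 418 CPM. Incenp, the scaffold, was at 105 CPM in both libraries, and Cdca8, or borealin, at 209.6 and 206 CPM. The interval of Aurkb, the kinase of the complex, alone lay wholly below 0, with 87.9 and 81.8 CPM (log2 ratio -0.10, -0.15 to -0.06).

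Among the genes of chromosome structure, Top2a, which untangles sister DNA, was at 467 CPM in the library labelled WT and 492 CPM in the library labelled dko (log2 ratio 0.08, 0.06 to 0.09). Mki67, which coats mitotic chromosomes, was at 88.8 and 85.5 CPM (-0.06, -0.10 to -0.01), and the kinesin Kif4 at 24.2 and 22.9 CPM. The 6 spindle genes lay on both sides. Ckap2 (ENSMUSG00000037725, chr8:22168160-22185819 on GRCm38, minus strand) encodes a spindle microtubule protein. It was at 121 and 101 CPM, a log2 ratio of -0.26 (-0.30 to -0.22). Kif11, the motor that pushes spindle poles apart, was at 81.9 and 70.0 CPM (-0.23, -0.27 to -0.18). Tpx2, an activator of Aurora A, was at 118 and 125 CPM, and Nusap1, which bundles spindle microtubules, at 81.6 and 86.0 CPM, both with a log2 ratio of 0.08. The intervals of Hmmr and Kif2c held 0.

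In cytokinesis, Kif20b was at 79.2 and 70.4 CPM (log2 ratio -0.17, -0.22 to -0.12). Anln and Ect2, an actin-binding scaffold of the cleavage furrow and the exchange factor that activates RhoA there, each had a log2 ratio of -0.13. Prc1, which bundles the microtubules of the central spindle, had a log2 ratio of 0.01 (-0.03 to 0.05). The intervals of Kif23 and Kif20a, motors of the central spindle, held 0 as well. Of the genes of exit and degradation, Cdc20 was at 231 and 233 CPM and Cdca3 at 165 and 167 CPM. Ube2c, the ubiquitin-conjugating enzyme of the anaphase-promoting complex, was at 367 and 359 CPM (-0.03, -0.05 to -0.01).

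The share of UMIs from these genes outside cells was nearly the same as inside. Barcodes of at most 100 UMIs, which hold free RNA, gave 4724 and 4587 CPM for the sum. A barcode of 100 such UMIs would thus hold 0.472 and 0.459 UMIs of the 38 genes, while cells held 55.1 and 44.5 on average. With near equal shares, that contrast follows from the depth of the barcodes. How much free RNA the cells themselves held was not measured. Whether counting used the strand was not stated. Genes with an annotated antisense neighbour are therefore less certain, among them Ccna2 (Exosc9), Cdc20 (Elovl1), Bub3 (Fgfr2), Nusap1 (Oip5), Ube2c (Tnnc2), Kif20a (Cdc23), Kif4 (Pdzd11) and Prc1 (Rccd1).

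Cells differed far more than libraries. To take away differences in depth, each cell was thinned at random to 2500 UMIs. The median cell then held 11 UMIs of the mitosis genes in both libraries. At least 20 were found in 10.6% of cells (9.92 to 11.2) in the library labelled WT and in 8.83% (8.30 to 9.39) in the library labelled dko, and at most 5 in 12.1% and 11.2%. None were found in 30 and 23 cells. These limits were set after the distribution was seen, and they cut a continuous range, with no separate group of high cells in either library.

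**Figure D2:**
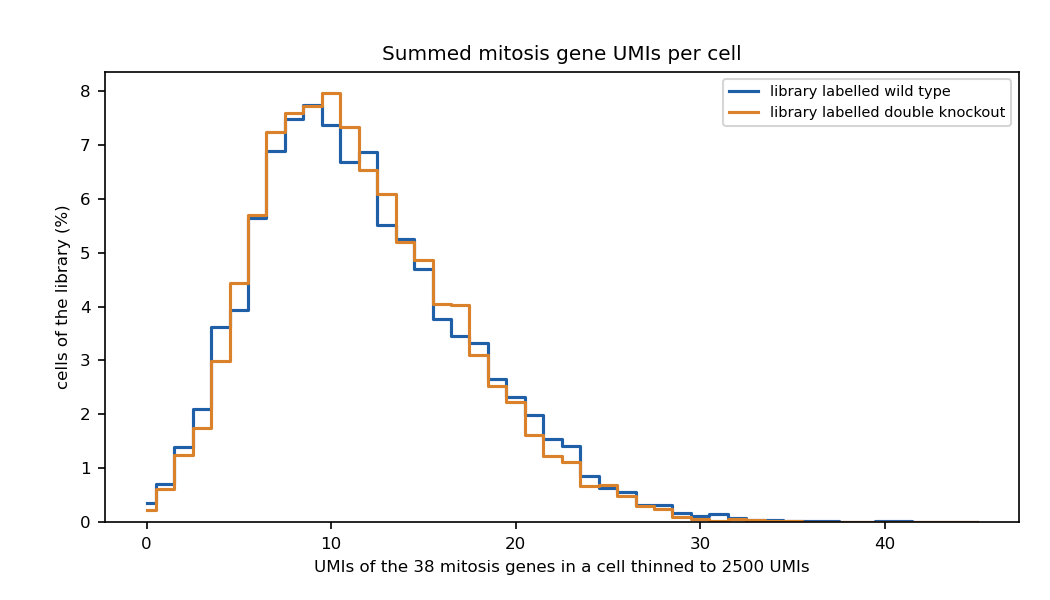
Share of cells (%) by the summed UMIs of the 38 genes, in cells thinned to 2500 UMIs, 1 line per library. Both lines rise to a single peak near the median of 11 and fall off in a tail to 41 UMIs in the library labelled WT and 35 in the library labelled dko.

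Co-variation was read in cells of at least 5000 UMIs thinned to 5000, which kept 8296 and 9970 cells and left out 411 and 617. The sum had a mean of 23.7 and 23.3 UMIs and a variance of 4.62 and 3.97 times the mean. For each gene, cells were ranked by the sum of the other 37 and the upper 20% compared with the lower 20%, so that no gene took part in its own ranking. Between these ends the median gene differed 2.44-fold in the library labelled WT and 2.37-fold in the library labelled dko, beside 1.02-fold for all other genes in both. At 1.5-fold or more were 34 of 38 genes and 32 of 38 (2.66% and 2.59% of all genes), and 31 of 38 in both libraries (1.70%). None was lower by that much (0.841% and 0.736% of all genes). The mitosis genes were thus high in the same cells, with a wide spread between genes.

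Nusap1 had the steepest change in the library labelled WT, from 0.142 to 0.801 UMIs per cell (5.65-fold), and changed from 0.166 to 0.752 (4.53-fold) in the library labelled dko. Prc1 changed from 0.168 to 0.840 (4.99-fold) and from 0.169 to 0.857 (5.08-fold). Ube2c, from 0.643 to 3.28 and from 0.731 to 2.91, changed 5.10-fold and 3.98-fold. These 3 genes, of spindle, midzone and degradation, come from different steps of mitosis. Cenpe changed 4.03-fold and 4.56-fold, Tpx2 3.86-fold and 3.38-fold and Cenpf 3.84-fold and 3.68-fold. Hmmr changed from 0.187 to 0.764 and from 0.186 to 0.745 UMIs per cell. By role, the 6 spindle genes had the highest median, 3.52-fold and 3.37-fold, and the cytokinesis genes followed in the library labelled WT with 2.88-fold (2.40-fold in the library labelled dko). Chromosome structure lay at 2.81-fold and 2.64-fold, and entry into mitosis at 1.98-fold and 1.69-fold.

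The cyclins parted. Ccnb1 went from 0.435 to 1.47 UMIs per cell in the library labelled WT and from 0.451 to 1.36 in the library labelled dko, which is 3.38-fold and 3.02-fold. Ccnb2 went only from 0.449 to 0.561 and from 0.436 to 0.512, which is 1.25-fold and 1.17-fold. Ccna2 was almost as flat, at 1.30-fold and 1.18-fold. The flat Ccnb2 and the steep Prc1 had like means over all cells, 0.485 and 0.481 UMIs per cell for Ccnb2 and 0.426 and 0.443 for Prc1. Also near flat were Mad2l1 (1.38-fold and 1.25-fold), Hjurp (1.41-fold and 1.55-fold) and Birc5 (1.52-fold and 1.39-fold). The passenger complex was therefore uneven, since its members Aurkb (3.05-fold and 2.48-fold) and Incenp (2.96-fold and 2.67-fold) lay well above Birc5 and Cdca8 (1.58-fold and 1.55-fold).

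**Figure D3:**
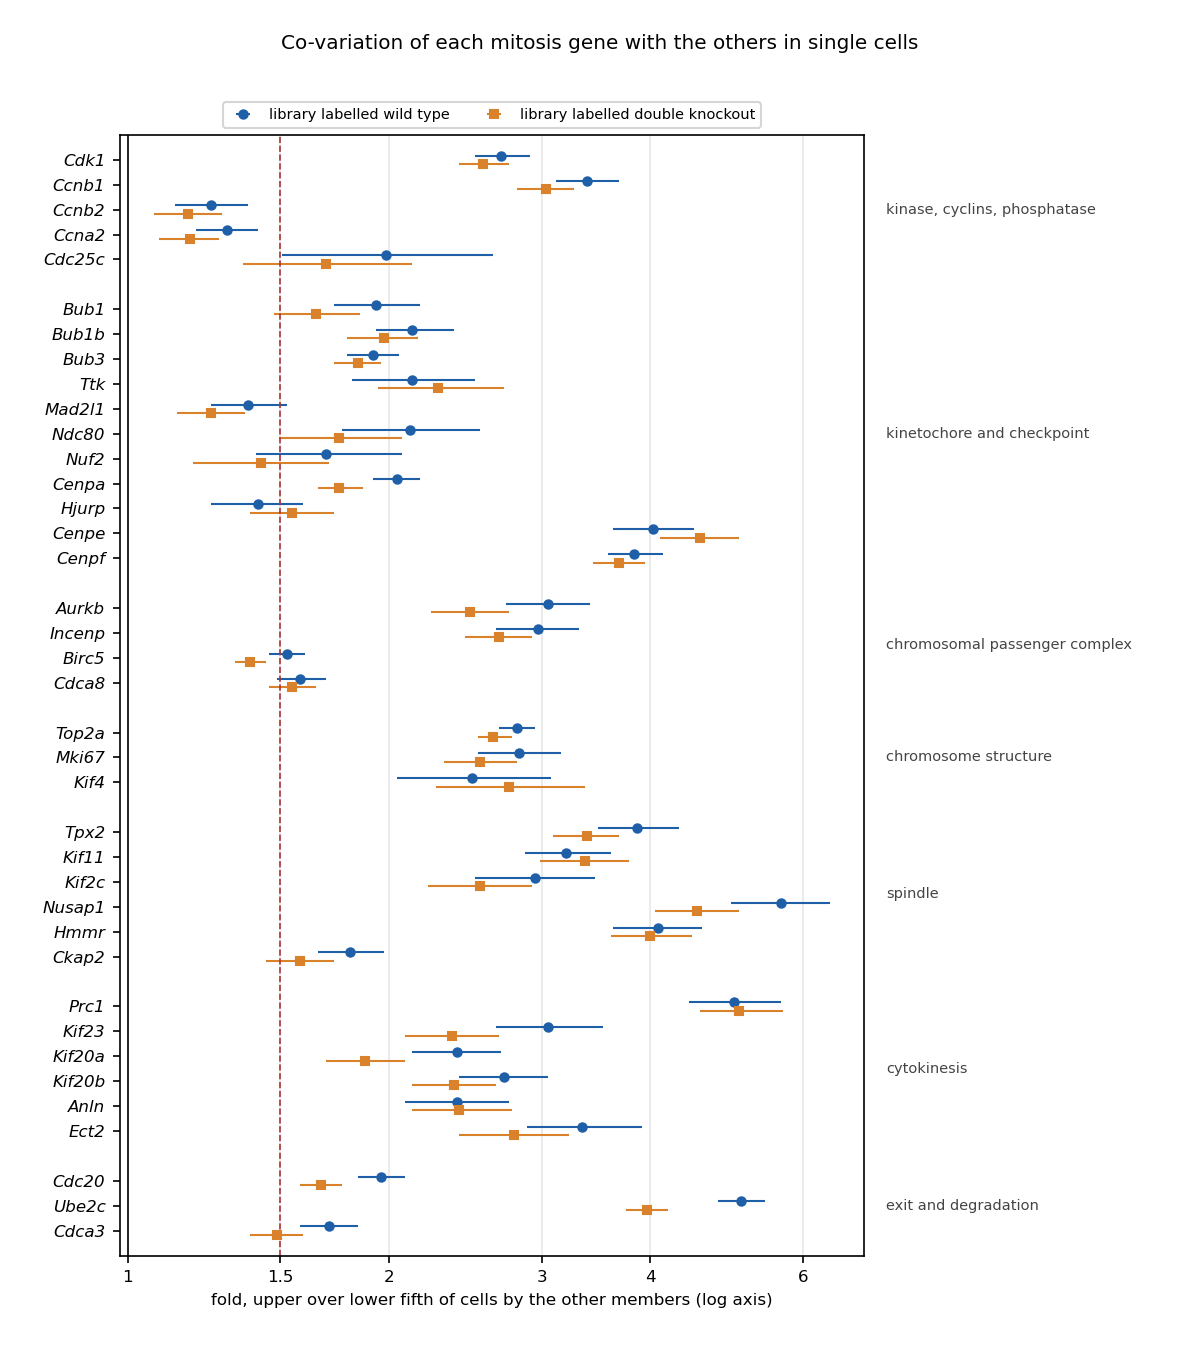
Fold of each gene between the upper and the lower 20% of cells ranked by the other 37 genes (log axis), with 95% counting intervals, for both libraries. Nusap1, Prc1 and Ube2c lie furthest right, Ccnb2, Ccna2 and Mad2l1 closest to 1, and the dashed line marks 1.5-fold.

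Other properties of the cells moved with this ranking. Upper cells were deeper before thinning, with medians of 13057 against 9301 UMIs in the library labelled WT and 10612 against 7772 in the library labelled dko. The summed UMIs of 37 S phase genes were lower in them, 23.8 against 31.7 and 23.2 against 30.5. Cells with a high doublet score made up 7.73% against 3.99% and 8.96% against 5.67%, while the mitochondrial share was alike, 3.84% against 3.92% and 4.10% against 4.15%. Among cells of 8000 to 12000 UMIs the median fold was 2.16 in both libraries, and without the high doublet scores it was 2.54 and 2.38.

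Pair by pair, correlations in these sparse counts were small. Over the 703 pairs the median Pearson r was 0.05 in the library labelled WT (8296 cells) and 0.04 in the library labelled dko (9970 cells), where the points share library and thinned depth. In the library labelled WT 137 pairs reached 0.1 and in the library labelled dko 96, all 96 of which also did so in the library labelled WT. The highest was Top2a with Ube2c at 0.31 in the library labelled WT and Top2a with Prc1 at 0.30 in the library labelled dko. Against the sum of the other 37 genes, Ube2c had the highest r, 0.50 and 0.46, followed by Cenpf (0.40 and 0.38) and Top2a (0.39 and 0.38). Ccnb2 was at 0.07 and 0.05, within the range of other genes, whose 99th percentile was 0.09 and 0.08. Cdc25c (0.06 in both), Nuf2 (0.08 and 0.05) and Mad2l1 (0.08 and 0.06) also lay within it. Ccna2, Ndc80 and Hjurp lay near its limit.

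**Figure D4:**
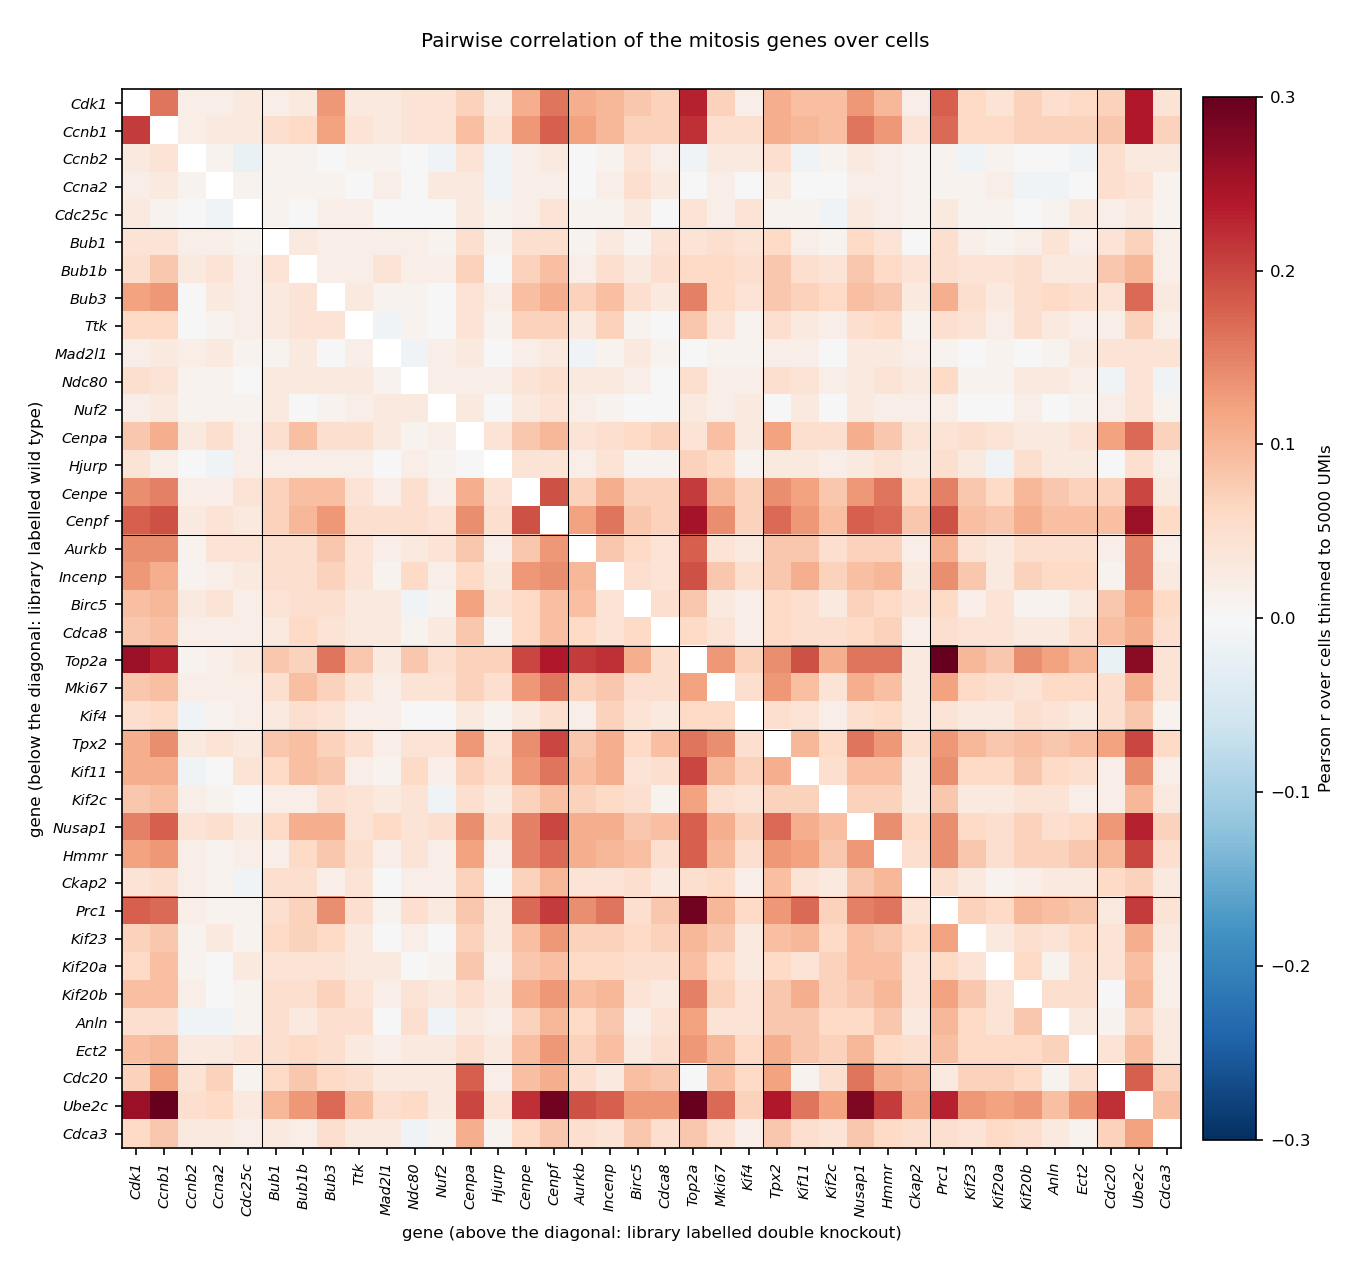
Pearson r between mitosis genes over cells thinned to 5000 UMIs, the library labelled WT below the diagonal and the library labelled dko above it, in role groups. Rows of Ube2c, Top2a, Cenpf, Nusap1 and Ccnb1 are darkest, with up to 0.31, and those of Ccnb2, Ccna2 and Cdc25c are close to 0.

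Top2a and Cdc20 did not vary together, with r of 0.00 and -0.02, although r with Ube2c was 0.31 and 0.27 for Top2a and 0.22 and 0.18 for Cdc20. Cells at the ends were compared, with limits chosen after this was seen, as at least 5 UMIs of Top2a and none of Cdc20 (362 and 469 cells) against at least 3 of Cdc20 and at most 1 of Top2a (565 and 660 cells). At the Cdc20 end, 6 of the other 36 genes were at least 1.5-fold lower in both libraries (1.05% of all genes) and none higher (0.329%). Prc1 was at 41.1 against 131 CPM in the library labelled WT and at 43.3 against 152 CPM in the library labelled dko. Kif11 was at 48.1 against 114 and at 44.2 against 92.5 CPM, and Incenp at 68.0 against 132 and at 63.6 against 148 CPM. Aurkb, Cenpf and Anln were the others. Cenpa went the other way, with 284 against 243 and 276 against 228 CPM, and Birc5 was level at 433 against 444 and 439 against 438 CPM. The Top2a end was deeper, with medians of 12420 against 8859 and 10385 against 7417 UMIs. It held more UMIs of the 38 genes per thinned cell, 29.9 against 23.5 and 29.9 against 23.0. That sum includes Top2a and Cdc20, by which the ends were chosen, so part of its difference was set by the choice. The S phase sum of the Top2a end was lower, 25.5 against 29.9 and 25.3 against 27.9. The part of these differences in the result was not tested.

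Among genes outside the list, those that followed the summed mitosis genes most closely, by the lower r of the libraries, included Arl6ip1 (r of 0.41 and 0.39), Cks2, Aurka, Plk1, H2afx, Ube2s, Tuba1c, Smc4 and Malat1 (0.19 and 0.24). Plk1 and Aurka, mitotic kinases, were 5.36-fold and 4.29-fold and 4.60-fold and 4.18-fold higher in the upper 20% of cells. At the other end stood Ung (-0.22 and -0.23), Hist1h1b, Pcna, Orc6 and Slbp, of which Ung, Pcna and Slbp belong to the S phase list. Of the 37 S phase genes, 11 were at least 1.5-fold lower in the upper cells in both libraries (0.394% of all genes) and none higher. Of 23 further spindle and cytokinesis genes 18 were higher by that measure, where 1.70% of all genes were. So were 6 of 13 other mitotic regulators and 9 of 31 other kinetochore genes. For cohesin and its separation it was 3 of 13, and for condensin 2 of 8. By contrast, of 17 genes of the anaphase-promoting complex and its partners 1 was, Fzr1, while Ube2s was 1.63-fold higher in the library labelled WT and just short of the limit in the library labelled dko. Of 11 G2/M transcription factors and partners 1 was, Foxm1.

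Between libraries most of these lists had medians close to the median of -0.03 over the 12406 genes of at least 1 CPM, of which 56.8% were lower in the library labelled dko. Past 0.25, 5.70% of those genes were higher and 8.89% lower. The median log2 ratio was -0.03 for the anaphase-promoting complex (9 of 17 lower), -0.10 for condensin (5 of 8) and -0.05 for cohesin and its separation (9 of 13). Other kinetochore genes were at -0.02 (20 of 34 lower), other mitotic regulators at -0.03 (11 of 15), and G2/M transcription at -0.05 (10 of 15). Other spindle and cytokinesis genes were at -0.03 (14 of 25 lower) and S phase genes at -0.05 (29 of 37). G1 regulators were at -0.18 (11 of 13 lower), led by Cdkn1c, a CDK inhibitor, at 20.8 and 6.81 CPM. Pttg1, or securin, which holds back separase until anaphase, was at 29.4 and 38.8 CPM (log2 ratio 0.40, 0.33 to 0.47), and Ncapg2 of condensin at 36.2 and 29.1 CPM (-0.31, -0.39 to -0.24).

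Cell states were compared in clusters built without the mitosis genes and the other cell cycle lists. Among the 8 clusters that held 100 cells or more of both libraries, the summed level differed by at most 1.34-fold in the library labelled WT and 1.29-fold in the library labelled dko. Cluster 0, led by Usp26 and Rabgap1l, had the highest sum, 5285 and 5215 CPM. A neural-like cluster, in which Sox1, Pax6 and Hes5 were raised (252 and 237 cells), had the lowest, 3949 and 4056 CPM. Primitive streak-like cells were at 4720.4 and 4740.4 CPM and naive pluripotent-like cells at 4985 and 5093 CPM. Within these 8 clusters the log2 ratio between libraries ran from -0.05 to 0.04. None of the 38 genes differed 1.5-fold from the other cells in both libraries in cluster 0 (0.276% of all genes lower, 0.223% higher), cluster 2 (1.26% and 0.789%) or cluster 3 (2.43% and 0.776%). The same held for the primitive streak-like cells (1.31% and 0.223%) and the naive pluripotent-like cells (5.57% and 2.76%).

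**Figure D5:**
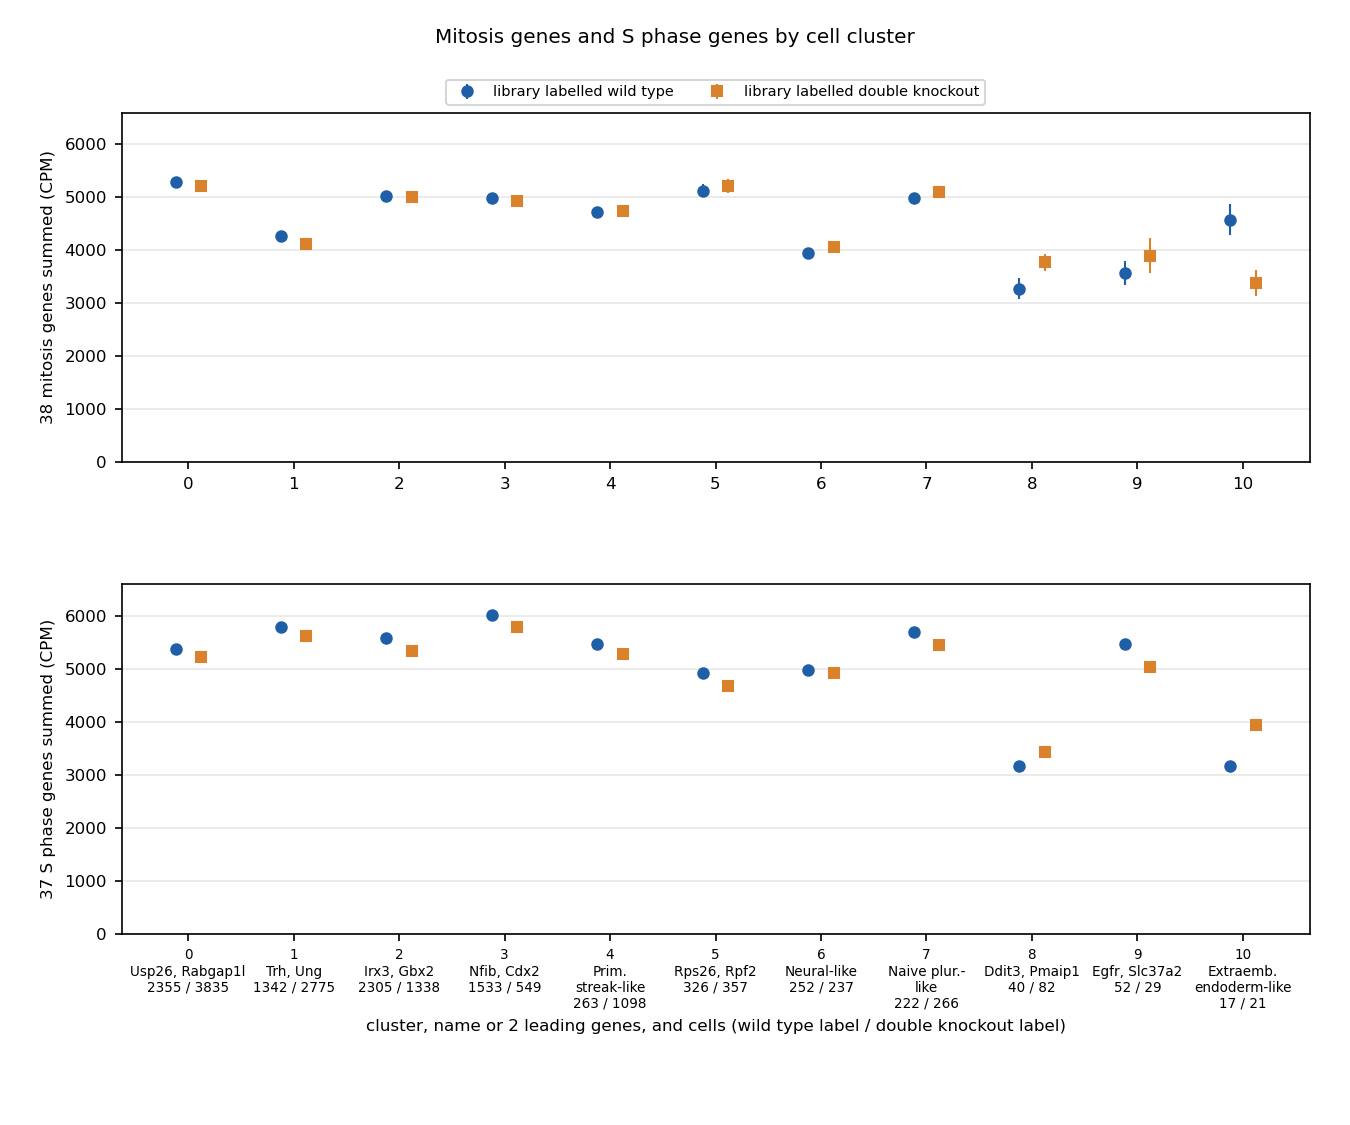
Summed CPM of the 38 mitosis genes (top, with 95% counting intervals) and of 37 S phase genes (bottom) by cluster, for both libraries, with numbers of cells below. Clusters 1, 6, 8 and 9 lie lowest for the mitosis genes in the library labelled WT, and clusters 8 to 10 hold 82 cells or fewer per library.

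In the neural-like cluster none of the 38 genes was 1.5-fold lower than in the other cells in both libraries (4.13% of all genes) or higher (3.98%). There Ube2c was at 240.4 and 258 CPM and Ccnb1 at 121 and 127 CPM. Cluster 1 was led by Trh and Ung, with Cdc6 among its leading genes. Its sum was 4264 and 4122 CPM, and 6 of 38 genes were at least 1.5-fold lower in both libraries (0.854% of all genes). Prc1 was at 55.3 and 56.5 CPM there, with log2 ratios to the other cells of -0.88 (-0.99 to -0.77) and -0.93 (-1.02 to -0.85). Kif11, Mki67, Cenpe, Cenpf and Kif4 were the others. Birc5 at 0.17 and 0.11 and Cdc20 at 0.09 and 0.08 lay slightly above the other cells. This cluster took 15.4% of cells in the library labelled WT and 26.2% in the library labelled dko. Its leading genes Ung and Cdc6 belong to the S phase list, which the clustering left out. At resolution 0.3, 99.4% of cluster 1 and 99.7% of cluster 0 fell into the same cluster. Whether they are separate cell states or differ by cycle phase was not tested.

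Cluster 5 had shallow cells, with medians of 3675 and 3226 UMIs, and a split pattern. Cdk1, Aurkb and Ube2c were at least 1.5-fold higher there in both libraries (0.776% of all genes), and 11 genes lower, where 39.9% of all genes were lower as well. Of the 11, Cdc25c (10 and 12 UMIs) had intervals that held 0 in both libraries. Ube2c was at 575 and 655 CPM, while Mki67 was at 18.6 and 13.5 CPM, from 24 and 17 UMIs, with log2 ratios of -2.24 and -2.64. Genes thus differed in opposite directions at a sum of 5124 and 5213 CPM, but the lower side was not particular to the mitosis genes. The small cluster 8 (40 and 82 cells), whose leading genes Ddit3 and Pmaip1 respond to stress, had 3268 and 3768 CPM, and 6 genes, Cdk1, Top2a, Mki67, Kif20a, Aurkb and Mad2l1, were lower (7.62%) and none higher (7.13%). Its S phase sum was also low, at 3165 and 3425 CPM. In cluster 9, with 52 and 29 cells, 6 genes were lower (6.49%), among them Cdk1 and Ube2c, and 1 higher (12.1%), Ttk, which rested on 14 and 8 UMIs with intervals that held 0 in both libraries. Of the 6 lower genes, Bub1b (15 and 6 UMIs) also had intervals that held 0 in both. The intervals of Ccnb2 and Nusap1 held 0 in the library labelled dko. The largest difference between the libraries within a cluster was that of the 17 and 21 extraembryonic endoderm-like cells. They were at 4573 and 3377 CPM (log2 ratio -0.44, -0.58 to -0.30), an interval that leaves out the spread between so few cells. In this cluster 4 genes lay past 1.5-fold on the lower side (12.6%) and 1 on the higher side (17.5%) in both libraries. Ccnb2 (9 and 8 UMIs) and Ckap2 (13 and 11 UMIs) had intervals wholly below 0 in both. The interval of Aurkb (10 and 9 UMIs) held 0 in 1 of them, and those of Ttk (3 and 4 UMIs) and Kif4 (9 and 7 UMIs), the gene on the higher side, held 0 in both.

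Some cells had a low share of UMIs from a whole chromosome, at most 0.8 times the median with mitosis genes left out. For chromosome 11 they were 17.7% of cells in the library labelled WT and 5.83% in the library labelled dko, and for chromosome 6 they were 21.2% and 18.2%, with 1212 and 261 cells low on both. Cluster 3 consisted of chromosome 11-low cells to 93.9% and 96.4%. The 4 mitosis genes of chromosome 11, Top2a, Birc5, Aurkb and Hmmr, moved with it. Their median log2 ratio, low cells over others, was -0.45 and -0.37, beside -0.50 and -0.53 for the 664 genes of that chromosome and 0.14 in both libraries for the other 34 mitosis genes. The low cells were chosen by a low share of that chromosome's genes without the mitosis genes. The -0.50 and -0.53 were therefore set by the choice. Ckap2, on chromosome 8, was the lowest of the genes elsewhere, at -0.45 and -0.28 in chromosome 11-low cells and at -0.40 and -0.31 in chromosome 6-low cells. Birc5 was at 301 against 440.2 CPM in the library labelled WT and at 295 against 425 CPM in the library labelled dko. On chromosome 6, Cdca3 was at 125 against 175 and at 122 against 177 CPM in low cells, and Mad2l1 at 75.3 against 106 and at 62.6 against 102 CPM. Without all such cells (6535 and 8305 left) the log2 ratio between libraries was 0.03 for Top2a in place of 0.08, -0.06 for Birc5, -0.16 for Aurkb and -0.04 for Hmmr in place of 0.02. Ckap2 was at -0.29 (-0.34 to -0.25) without them.

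Promoter classes overlapped in how steeply their genes followed the others, and differences between their medians were not tested. The 12 genes with both CHR and CCAAT had median folds of 2.75 and 2.56, the 12 with CCAAT alone 2.31 and 2.33, and the 7 with neither 2.12 and 1.76. Kif2c, the 1 gene with CHR alone, was at 2.95 and 2.54. Each class spanned a wide range. Ube2c and Ccnb2 both belong to the first, with 5.10-fold and 1.25-fold in the library labelled WT, and Nusap1, the steepest gene there, belongs to the last.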

How the data were processed

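Single-cell 3′ RNA was measured in 1 library per genotype. The authors deposited unnormalized UMI counts of every gene in 6794880 barcodes per library. STARsolo, STAR 2.7.9a, Seurat 5.1.0 and mm10 are named in the submitters' processing notes, and Cell Ranger 8.0.1 in the labels' protocols; which tool wrote these counts is not given in the sources used here. The labels state 9238 and 11190 cells with medians of 5333 and 5398 genes. Here 8772 and 10613 barcodes had at least 2500 UMIs, 1 and 0 of them with under 1000 genes and 64 and 26 with over 10% mitochondrial UMIs, and the cells kept had medians of 3275 and 2884 genes. The deposited counts thus differ from those behind the labels' numbers. Doublets were kept, since the selection rule does not remove them; scores against simulated doublets marked 606 cells (6.96%) and 897 (8.47%) at 0.8% per 1000 cells.

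UMIs were summed per library and scaled to its total (CPM). Each molecule gives 1 tag, so CPM were not divided by gene length. Ratios used a pseudocount of 0.5 UMI with a conditional (Poisson) interval; shares of cells have Clopper-Pearson intervals, all exact and at 95%. The computation of the ratios and intervals was checked on simulated Poisson counts. The intervals assume that same model, so the check does not cover the spread between cells or cultures. Clusters were made over both libraries with leidenalg 0.10.2 (2000 variable genes, 30 principal components, 15 neighbours, resolution 0.5), leaving out cell cycle, Sp5, Sp8, mitochondrial, ribosomal and Y-linked genes. A cluster was named where at least 3 markers of a class were raised 1.5-fold over the other cells and at least 1 of these was among its leading genes. Promoter windows came from RefSeq, gene neighbours from GENCODE M21 on GRCm38. Scaling alternatives used edgeR 4.0.16 (TMM) and DESeq2 1.42.0 (median of ratios), for scaling only, with no test.

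The members and gene lists were chosen with earlier results of these data known. Named genes were all members, Sp5 and Sp8, up to 4 genes per list with the largest ratio, the 10 and 5 other genes with the highest and lowest r, and leading genes of clusters; Fzr1 and Foxm1 were named after their values were seen, and 1 gene that the rule names is not reported here. Alternatives covered cell filters, scaling, doublets, clusters, thinning and thresholds.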

Additional observations from a re-analysis of the deposited data

How the results depend on the processing

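With 1 library per genotype the spread between cultures was not measured, and leaving out a library leaves no comparison. No paired analysis was possible because the result comes from no test, with 1 library per group. The log2 ratio of the summed genes was -0.03 with at most 5% mitochondrial UMIs, -0.01 with TMM scaling, and -0.02 with median-of-ratios scaling, with equal cluster shares, in the largest cluster alone and in cells thinned to 2500 UMIs. The count of genes past 0.25 was 1 and became 2 with at most 5% mitochondrial UMIs (Ckap2 at -0.26 and Cdc25c at 0.26), 0 with median-of-ratios scaling and 0 at a threshold of 0.5. It stayed 1 with TMM scaling, but the gene was then Cdc25c (0.25, Ckap2 at -0.23), as it was with equal cluster shares (0.29, Ckap2 at -0.22) and in the largest cluster alone (0.34). The log2 ratio of Ckap2 ran from -0.31 to -0.22. Mki67 turned to 0.01 with equal cluster shares and Bub1b to 0.01 in the largest cluster alone. Of 342 values of single genes under these and further alternatives, 277 stayed within their counting interval, 63 moved by more and 2, those of Mki67 and Bub1b, turned from an interval that excluded 0. Genes whose interval held 0, such as Kif4 (-0.08 to 0.10), Hjurp (-0.07 to 0.06) and Nuf2 (-0.12 to 0.07), could also lie on either side. Under the scalings, the median over all genes was -0.02 to 0.01.

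The ratio of the highest to the lowest cluster was 1.07 and 1.10 at resolution 0.3, 1.45 and 1.36 at resolution 1.0, and 1.48 and 1.40 after thinning to 2500 UMIs. The clusters at the ends also changed. At resolution 0.3 the highest in both libraries was the cluster that took 99.7% of the shallow cluster 5. The lowest was the one that took 91.0% of the primitive streak-like cells. In the library labelled dko, the lowest at resolution 1.0 was the one that took 63.6% of cluster 1. After thinning, cluster 5 was the highest in that library. At resolution 0.3, 83.4% of the neural-like cells fell into a larger cluster, and 99.4% of cluster 1 shared a cluster with 99.7% of cluster 0. The median pair r in the library labelled WT was 0.03 after thinning to 2500 UMIs. In cells thinned to 5000 UMIs, 8.80% and 6.03% held at least 40 UMIs of the 38 genes. Among alternatives chosen after seeing the data, the median fold between the upper and lower 20% of cells in the library labelled dko was 2.10 after thinning to 2500 UMIs and 2.01 in the largest cluster alone.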
